A study of Mus musculus with 14 samples.

Results

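The genes described here encode the proteins of the cytosolic ribosome. They were chosen by gene symbol, as every probe whose annotated symbol starts with Rpl or Rps and a digit or is Rplp0, Rplp1, Rplp2 or Rpsa, without the Rps6k kinases and without symbols that mark pseudogenes. On the array 84 probes for 66 genes met that rule, of 25697 probes in all. Of these, 75 probes for 61 genes were detected, with a detection p under 0.01, on at least 2 of the 14 arrays. The 61 genes comprised 36 of the large subunit by symbol (Rpl) and 25 of the small subunit (Rps), and they were tested among 8669 genes or unnamed probes. The symbol rule also takes in some genes that are not core ribosomal proteins: Rps19bp1 encodes a protein that binds Rps19, Rps23rg1 is a retrogene copy of Rps23, and Rpl7l1 is a relative of Rpl7.

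The study asked how embryo culture and intracytoplasmic sperm injection affect mouse blastocysts, per its title, and hybridised total RNA to Illumina single-colour bead arrays. The 14 samples form 5 groups: samples labelled HTF/MultiBlast (n = 3), which the series text calls multiblastocysts in HTF medium, blastocysts in the media ISM1 and ISM2 (ISM1/ISM2, n = 3), blastocysts in KSOM(aa) medium (n = 2), a group labelled oviduct (n = 3) and a micromanipulation control (n = 3). HTF is a culture fluid modelled on the human oviduct and KSOM(aa) is a mouse embryo medium with amino acids added. The labels give no strain, genotype, age, embryo number per sample or medium for the micromanipulation control, and they do not say which groups were injected. HTF and the word MultiBlast occur only together, so what each stands for in the results cannot be told apart, and the sample titles do not say whether MultiBlast names a kind of embryo or a medium. The 3 control samples all carry replicate number 1 in their descriptions although the series text calls replicates biological, so p-values measure the spread between these samples, which may be technical.

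A ribosome reads messenger RNA on its small subunit and joins amino acids on its large subunit. Each subunit is a core of ribosomal RNA with a set of proteins, nearly all present once in each ribosome, and so their genes are among the most strongly transcribed in growing cells. In the mouse embryo, transcription of these genes starts with activation of the zygotic genome, and the blastocyst stage is one of rapid ribosome production. Several ribosomal protein genes have paralogs that can take their place in the ribosome: Rpl22l1 for Rpl22, Rpl39l for the X-linked Rpl39, Rps27l for Rps27 and Rpl36al for Rpl36a. In adult mice Rpl39l is known as the testis form.

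Promoters of the genes with the results below are shown for Rpl22 and Rpl39 with their paralogs and for 4 other genes, from RefSeq in build GRCm38.p6, each from 60 bases before the annotated start to 20 bases into the transcript. Capitals mark the 20 bases from the annotated start, and each line reads 5′ to 3′ on the gene's strand. Rpl22 has 2 annotated starts on the plus strand, at chr4:152325666-152325745 for the stretch called start A and at chr4:152324376-152324455 for start B. Rpl22l1 lies on the plus strand at chr3:28805448-28805527, Rpl39 on the minus strand at chrX:37085203-37085282 and Rpl39l on the plus strand at chr16:10170168-10170247. Rps12 lies on the minus strand at chr10:23787190-23787269, Rps13 on the minus strand at chr7:116334171-116334250, Rps15 on the plus strand at chr10:80292371-80292450 and Rpl24 on the plus strand at chr16:55966215-55966294. The stretches let a reader see what the starts of genes that moved in opposite directions look like, and how a paralog's start differs from that of its partner.
Rpl22 start A: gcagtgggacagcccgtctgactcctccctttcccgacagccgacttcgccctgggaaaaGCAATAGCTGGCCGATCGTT
Rpl22 start B: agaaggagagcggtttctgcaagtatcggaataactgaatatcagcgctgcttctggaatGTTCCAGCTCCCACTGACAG
Rpl22l1: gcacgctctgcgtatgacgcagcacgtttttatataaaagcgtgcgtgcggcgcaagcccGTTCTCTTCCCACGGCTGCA
Rpl39: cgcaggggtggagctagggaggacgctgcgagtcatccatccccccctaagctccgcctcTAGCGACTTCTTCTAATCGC
Rpl39l: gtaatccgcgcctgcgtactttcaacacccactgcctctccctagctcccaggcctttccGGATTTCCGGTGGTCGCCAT
Rps12: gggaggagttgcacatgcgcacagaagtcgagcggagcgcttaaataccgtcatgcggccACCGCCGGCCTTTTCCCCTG
Rps13: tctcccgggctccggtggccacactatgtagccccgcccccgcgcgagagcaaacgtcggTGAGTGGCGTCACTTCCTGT
Rps15: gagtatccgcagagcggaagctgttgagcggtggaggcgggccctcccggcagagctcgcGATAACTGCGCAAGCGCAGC
Rpl24: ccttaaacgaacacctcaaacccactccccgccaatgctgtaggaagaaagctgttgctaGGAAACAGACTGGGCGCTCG

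Ribosomal protein genes typically start within a run of pyrimidines, and their promoters often carry sites for ETS-family factors such as Gabpa and for YY1. RefSeq windows of 300 bases, from 250 before to 50 after the annotated start, were matched to 53 of the 61 genes by symbol. The letters CCGGAAG, the core that ETS factors bind, occurred on either strand in 20 of the 53 (37.7%), against 9.93% of 27025 genes with a window. The letters AAGATGG, the core of the YY1 site, occurred on either strand in 9 of the 53 (17%), against 7.28% of all genes. The pyrimidine run CTTTCC occurred on either strand in 28 of the 53 (52.8%), against 29.3% of all genes, and on the gene's own strand in 20 (37.7%), against 16%. Among the stretches printed above, Rpl22 start A and Rpl39l hold CTTTCC on the gene's strand and the other 7 do not. A match anywhere in the window counted, so the CTTTCC shares do not measure a pyrimidine run at the start itself. The 27025 genes were not limited to those tested on the arrays. These matches describe the letters of the windows and were not set against the array values.

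The group labelled oviduct did not show the defining markers of oviduct tissue. Of 5 markers of oviduct epithelium, Ovgp1, Pax8, Krt5 and Tppp3 were detected on 0 of the 14 arrays, and Foxj1 on 3, none of them of the oviduct group (5.66, 5.53 and 5.36, near the lowest detected signals). The blastocyst markers Cdx2, Krt8, Nanog and Gata6 were detected on all 14, those 3 of the oviduct group included. Of the other lineage markers looked at, the primitive endoderm genes Sox7 and Gata4 were detected on 11 and 1 arrays. The rest were detected on all 14. Markers of muscle and stroma (Myh11, Dcn, Col1a1), blood (Ptprc, Hba-a1) and cumulus cells (Has2, Ptx3, Foxl2) were also at 0 of 14. The smooth muscle actin gene Acta2 was detected on 5 arrays, 2 of them oviduct replicates 2 and 3, at 5.12 to 5.61. The myeloid marker Lyz2 was detected on 1 array, oviduct replicate 3, where it read 8.37, against 5.16 and 4.35 on the other oviduct arrays. Between 8533 and 10188 probes were detected per array, fewest on oviduct replicate 1 and most on oviduct replicate 2. The 2 KSOM(aa) arrays stood apart from each other: 42 of the 61 ribosomal protein genes were lower on replicate 2 than on replicate 1, and 8 were lower by more than 1 log2 unit (Rpl6, Rpl22l1, Rpl27, Rpl37a, Rpl39, Rps21, Rps23 and Rps27). These counts were not made for all tested genes. The root mean square distance of each KSOM(aa) array from the group mean was 0.41 over the ribosomal protein genes and 0.40 over all tested genes. On replicate 2, Rpl22l1 (4.89) and Rps23 (4.74) were below the lowest detected signal of 5.21. In whole embryos, fewer cells of a type and less RNA per cell cannot be told apart.

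Values below are log2 intensities after background correction and quantile normalisation, on which 1 unit is a 2-fold difference and the median probe of every array lies at 4.69. Ribosomal protein genes lay near the top of that scale. Their median level was 12.10, against 7.76 for all tested genes, and 21 of the 61 had a mean of 13 or more, as did 131 of the other tested genes. A probe's brightness also depends on its sequence, so that these levels do not rank the genes by transcript number. In the large subunit the brightest probes were those of Rpl41, the smallest ribosomal protein, with a mean of 14.15, Rpl3, which lies next to the peptidyl transferase centre, with 14.08, and Rpl10, which is added late in assembly, with 14.01. In the small subunit they were Rps20 with 13.91, the paralog Rps27l with 13.80 and Rps14 with 13.79. Before normalisation the Rpl41 probe read 60.5 to 95.6% of the highest intensity of its array and the Rpl3 probe 61.1 to 93.9%.

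At the other end, the dimmest tested genes of the large subunit were Rpl6 with a mean of 5.55, Rpl24 with 5.88 and Rpl21 with 6.42. In the small subunit they were Rps23 with 5.23, the binding protein Rps19bp1 with 5.37 and the retrogene Rps23rg1 with 5.87. The other 5 of the 66 genes were not tested. The probes of Rpl17, Rpl7a, Rplp2 and Rpsa, the last with 2 probes, were detected on 0 arrays, and that of Rpl3l, the muscle form of Rpl3, on 1. Of genes with several probes, 2 of the 3 for Rpl37 and 1 of the 2 for Rps19 were also detected on 0 arrays, while the remaining probe of each was bright. Rplp1 (mean 13.80), whose protein pairs with Rplp2 in the stalk of the large subunit, was by contrast among the bright genes. The stalk proteins recruit elongation factors to the ribosome. The Rplp1 level lay between 13.54 and 14.17 over the 14 arrays, and that of Rplp0, the base of the stalk, between 9.73 and 10.77. Neither passed a test (F test adjusted p = 0.655 for Rplp1 and 0.695 for Rplp0).

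Of the 61 ribosomal protein genes, each read by its brightest tested probe, 52 passed no test of a difference between groups. Among these 52, Rpl21, Rpl29, Rpl38 and Rps24 had a dimmer probe that passed when every probe was tested on its own, as described below. In the F test across groups (limma, Benjamini-Hochberg adjusted p under 0.05 over all 8669 tested), 6 of the 61 passed (9.84%), against 18.5% of all tested genes. They were Rpl22 (adjusted p = 0.000505), Rpl24 (0.016), Rpl39l (0.0179), Rps15 (0.0292), Rps13 (0.0469) and Rps19bp1 (0.0471). With 1 array left out at a time the count was 2 to 9, lowest without ISM1/ISM2 replicate 1 or 3 and highest without KSOM(aa) replicate 1. The large subunit gave 3 of its 36 and the small subunit 3 of its 25, 1 of which, Rps19bp1, is not a ribosomal protein. The highest group mean exceeded the lowest by a median of 0.42 log2 units over the 61 genes, against 0.69 over all tested genes, and by more than 1 unit in 8 of them (13.1%), against 27.1% of all. The replicates were also closer, with a median within-group SD of 0.21 against 0.32. Neither difference held among genes of low signal, as given below.

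**Figure D1:**
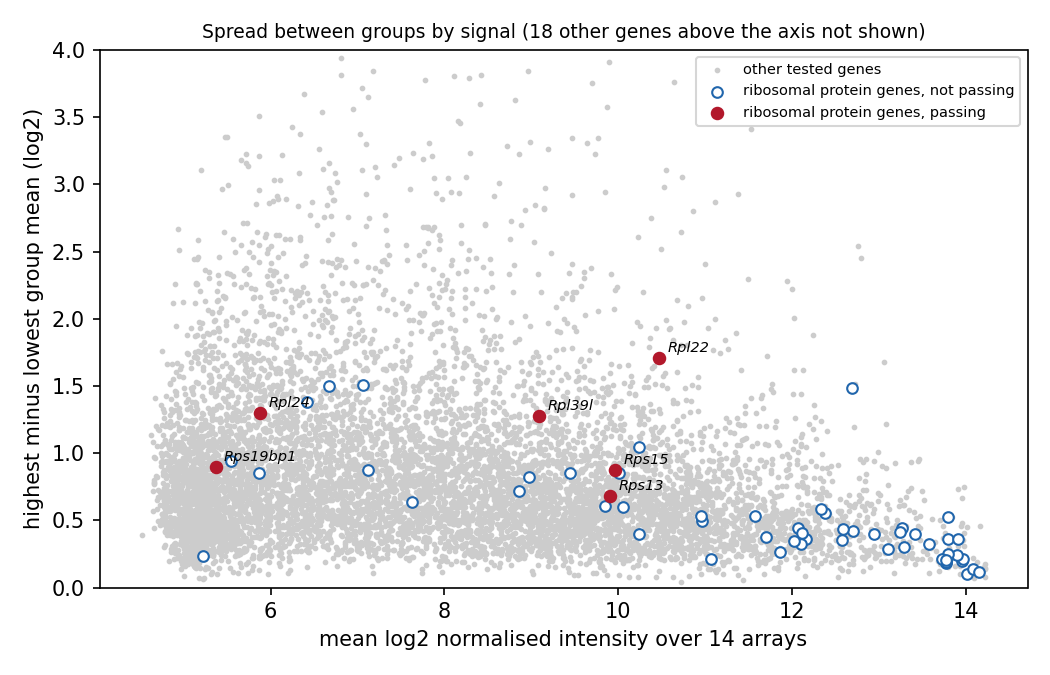
Highest minus lowest group mean (log2) against mean log2 normalised intensity over the 14 arrays, with other tested genes in grey (18 of them lie above the axis), ribosomal protein genes as circles and the 6 that passed the F test filled and named. Ribosomal protein genes crowd at the right, where the spread between groups is small, and Rpl22 has the widest spread among them at 1.71.

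Brighter genes had the narrower spread. Among the 21 ribosomal protein genes with a mean of 13 or more, 0 passed the F test and the median difference between highest and lowest group was 0.24, while 11 of the 131 other genes in that band passed (8.40%) with a median of 0.33. From 11 to 13, 0 of 16 ribosomal protein genes and 14.7% of the 838 others passed. From 8 to 11, 4 of 14 passed, against 18.4% of 3045 others, and below 8, 2 of 10, against 19.7% of 4594. In these 2 bands the ribosomal protein genes did not have the narrower spread. The median difference between highest and lowest group was 0.77 against 0.66 of the others from 8 to 11, and 0.92 against 0.78 below 8. The median within-group SD was 0.30 against 0.29 from 8 to 11, and 0.46 against 0.37 below 8. The part that probe brightness plays in these counts was not tested.

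Embryos grown in ISM1 and ISM2 had less Rpl22 than every other group. Rpl22 encodes an RNA-binding protein of the large subunit that is not needed for translation in general and is best known in the mouse for its role in T-cell development. In the ISM1/ISM2 arrays its log2 level was 9.14, 9.64 and 9.73, and in the oviduct arrays 11.16, 11.41 and 11.05. The KSOM(aa) arrays read 10.59 and 10.82, the HTF/MultiBlast arrays 10.51, 10.70 and 10.61 and the micromanipulation controls 10.30, 10.50 and 10.50. All 3 ISM1/ISM2 arrays were below all 11 others, and all 3 oviduct arrays were above all 11 others. Rpl22 was lower in ISM1/ISM2 than in oviduct by 3.26-fold (log2 difference -1.71, SE 0.19, adjusted p = 4.16e-05, limma). It was 2.16-fold higher in HTF/MultiBlast than in ISM1/ISM2 (adjusted p = 0.00365), 2.3-fold lower in ISM1/ISM2 than in KSOM(aa) (0.00312) and 1.91-fold higher in the micromanipulation control than in ISM1/ISM2 (0.00455). These comparisons share the ISM1/ISM2 arrays, and all 4 passed without any 1 of the 14 arrays. The other groups' means were below that of oviduct by 0.50 to 0.77 log2 units, which did not pass (adjusted p = 0.0969 for the micromanipulation control, 0.0849 for HTF/MultiBlast and 0.358 for KSOM(aa)).

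The paralog Rpl22l1 showed no change that passed a test. In mice that lack Rpl22, Rpl22l1 is known to rise and to enter the ribosome in its place. Its level was 6.90, 6.98 and 7.96 in the ISM1/ISM2 arrays and 5.41, 5.63 and 8.07 in oviduct, so that the groups overlapped (log2 difference 0.91, SE 0.79, adjusted p = 0.436). In KSOM(aa) it was 8.48 and 4.89, the widest gap between 2 replicates for this gene, in HTF/MultiBlast 7.55, 7.02 and 6.42 and in the micromanipulation control 7.85, 7.68 and 8.12. The highest mean was thus in the control arrays, at 7.88, and the lowest in oviduct, at 6.37, with adjusted p = 0.355 for the difference.

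Rpl39l was higher in ISM1/ISM2 than in each other group. It read 10.28, 9.81 and 10.14 there, 9.03, 8.33 and 9.04 in oviduct, 9.27 and 8.41 in KSOM(aa), 9.32, 8.65 and 8.50 in HTF/MultiBlast and 8.74, 8.82 and 8.95 in the micromanipulation control. The lowest ISM1/ISM2 array was above the highest of the 11 others, and the other groups' means lay together between 8.80 and 8.84. The rise over oviduct was 2.43-fold (log2 difference 1.28, SE 0.28, adjusted p = 0.00541), that over KSOM(aa) 2.35-fold (adjusted p = 0.0231). Rpl39l was 2.39-fold lower in HTF/MultiBlast (0.0175) and 2.37-fold lower in the micromanipulation control (0.00856) than in ISM1/ISM2. The differences from oviduct and the control passed without any 1 array. That from KSOM(aa) was lost without KSOM(aa) replicate 2 (adjusted p = 0.199) and without ISM1/ISM2 replicates 1 and 3 (0.0803 and 0.0525), and that from HTF/MultiBlast without its replicates 2 and 3 (0.0831 and 0.0846) and without ISM1/ISM2 replicates 1 and 3 (0.0786 and 0.0528).

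The X-linked partner Rpl39, a small protein of the tunnel through which the new chain leaves the ribosome, gave 13.26, 13.01 and 13.34 in ISM1/ISM2 and 11.82, 12.58 and 12.90 in oviduct (log2 difference 0.78, SE 0.56, adjusted p = 0.335). One KSOM(aa) array read 13.32 and the other 10.12, and the second is the lowest of the 14. The HTF/MultiBlast arrays read 13.04, 12.77 and 12.86 and the control arrays 12.99, 12.84 and 12.83. Rpl39 passed in 0 of the 10 comparisons.

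Rpl24 and Rps15 were also higher in ISM1/ISM2 than in each other group. Rpl24 sits at the face where the subunits join, and its mouse mutant has a belly spot and a kinked tail. Its level was 6.54, 6.54 and 6.92 in ISM1/ISM2, 6.18, 5.45 and 6.09 in oviduct, 5.41 and 5.33 in KSOM(aa), 6.06, 5.70 and 5.62 in HTF/MultiBlast and 5.18, 5.40 and 5.90 in the control. The lowest ISM1/ISM2 array was above the highest of the others, on a probe that was dim and undetected on 1 of the 2 KSOM(aa) arrays and on 1 of the 3 control arrays. Rpl24 was 1.7-fold higher than in oviduct (log2 difference 0.76, SE 0.24, adjusted p = 0.0351) and 2.46-fold higher than in KSOM(aa) (0.0085). It was 1.83-fold lower in HTF/MultiBlast (0.0484) and 2.26-fold lower in the control (0.00498) than in ISM1/ISM2. Against oviduct the adjusted p rose to 0.134 without oviduct replicate 2 and to 0.0628, 0.0596 and 0.114 without ISM1/ISM2 replicates 1, 2 and 3. Against HTF/MultiBlast the call was lost without each HTF/MultiBlast or ISM1/ISM2 array and without control replicates 1 and 2 (adjusted p 0.0548 to 0.16), and against KSOM(aa) without KSOM(aa) replicate 2 (0.05).

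Rps15 encodes a small-subunit protein near the decoding site. It read 10.52, 10.66 and 10.34 in ISM1/ISM2, 9.97, 9.95 and 9.61 in oviduct, 9.70 and 9.56 in KSOM(aa), 9.73, 9.79 and 10.04 in HTF/MultiBlast and 9.95, 9.76 and 9.99 in the control, again with every ISM1/ISM2 array above the 11 others. The rise over oviduct was 1.58-fold (log2 difference 0.66, SE 0.18, adjusted p = 0.0142) and that over KSOM(aa) 1.83-fold (0.0118). The deficits relative to ISM1/ISM2 were 1.57-fold in HTF/MultiBlast (0.0413) and 1.53-fold in the control (0.0297). Without ISM1/ISM2 replicate 2 the comparison with oviduct no longer passed (adjusted p = 0.0592), nor did that with KSOM(aa) without KSOM(aa) replicate 2 (0.0708). The calls against HTF/MultiBlast and the control were lost without each array of the control and without ISM1/ISM2 replicates 1 and 2, and that against HTF/MultiBlast also without each of its own arrays (adjusted p 0.0613 to 0.144 against HTF/MultiBlast and 0.0632 to 0.121 against the control).

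The remaining changes in ISM1/ISM2 were Rps19bp1 and Rpl27a. Rps19bp1, whose protein binds Rps19, was detected on all 3 ISM1/ISM2 arrays, at 6.02, 5.80 and 5.88, and on none of the oviduct or micromanipulation control arrays, where its values of 5.54, 5.02 and 5.29 and of 5.14, 5.31 and 5.31 are background. It was therefore at least 1.46-fold higher than in oviduct (adjusted p = 0.031) and at least 1.44-fold higher than in the control (0.0342). These bounds set the mean of the bright group against the lowest detected signal of the dim arrays. Against KSOM(aa), where it read 4.76 on replicate 1, which is background, and 5.25 on replicate 2, which detected it, the test also passed (adjusted p = 0.0164), and no fold is given. The HTF/MultiBlast arrays read 5.24, 5.17 and 5.46, of which only the last was above its array's lowest detected signal (5.22). The comparison of HTF/MultiBlast with ISM1/ISM2 did not pass. Against oviduct the call was lost without each ISM1/ISM2 array in turn and without oviduct replicates 2 and 3 (adjusted p 0.0554 to 0.11). Against the control it was lost without each array of either group (adjusted p 0.0615 to 0.117), and against KSOM(aa) without ISM1/ISM2 replicate 1 (0.0579) or KSOM(aa) replicate 1 (0.102). Rpl27a, a large-subunit protein whose mouse mutant has dark footpads and ataxia, read 9.13, 9.53 and 9.74 in ISM1/ISM2 and 10.22, 10.21 and 9.71 in oviduct. It was 1.49-fold lower (log2 difference -0.58, SE 0.20, adjusted p = 0.0456), although the highest ISM1/ISM2 array lay above the lowest oviduct array. Leaving out any 1 of the HTF/MultiBlast or control arrays, or replicate 1 or 2 of ISM1/ISM2 or oviduct, ended that call (adjusted p 0.0591 to 0.187).

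**Figure D2:**
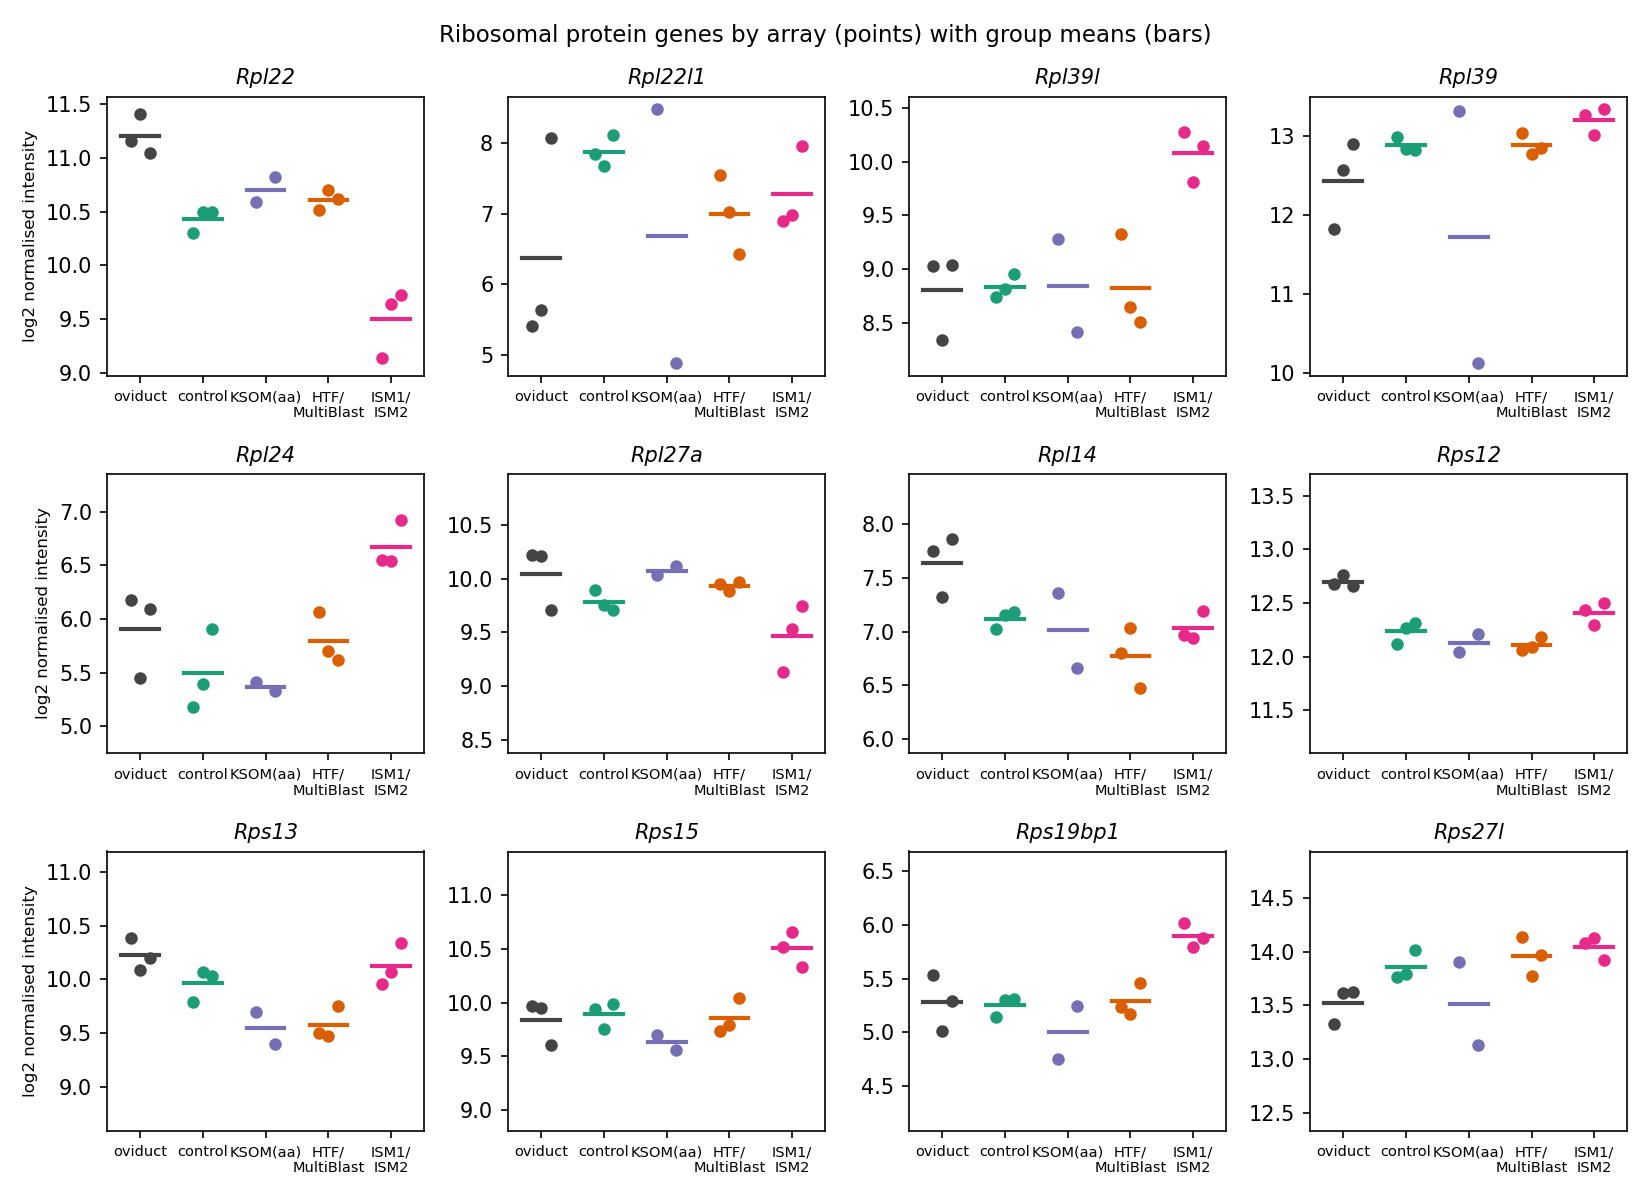
Log2 normalised intensity of 12 ribosomal protein genes on each array (points) with the mean of each group (bars), groups in the order oviduct, micromanipulation control, KSOM(aa), HTF/MultiBlast and ISM1/ISM2. The scales differ between panels and span at least 2.6 log2 units. The ISM1/ISM2 arrays are below all others for Rpl22 and above all others for Rpl39l, Rpl24, Rps15 and Rps19bp1, while Rpl22l1 and Rpl39 vary widely between replicates.

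Against oviduct, then, ISM1/ISM2 had 4 ribosomal protein genes higher and 2 lower, 6 of 61 (9.84%), while 25.8% of all tested genes passed, 14.3% higher and 11.5% lower. The median difference of the 61 genes was 0.01, beside 0.02 for all tested genes, with 31 above and 30 below 0. Of all 8669 tested genes 4493 were above 0. Against HTF/MultiBlast, 1 gene was lower in ISM1/ISM2 and 3 were higher, 4 in all, where 7.13% of all genes passed (3.36% higher and 3.77% lower in HTF/MultiBlast). Against KSOM(aa), 4 were higher in ISM1/ISM2 and 1 lower, where 11.6% of all genes passed (6.29% higher and 5.32% lower in ISM1/ISM2). Against the micromanipulation control, 4 were higher in ISM1/ISM2 and 1 lower, where 16.8% of all genes passed (7.71% higher and 9.08% lower in the control). With 1 array left out at a time the count against oviduct was 2 to 10, lowest without ISM1/ISM2 replicate 2 and highest without either KSOM(aa) array. Against KSOM(aa) it was 2 to 9, lowest without KSOM(aa) replicate 2 and highest without replicate 1. Against HTF/MultiBlast it was 1 to 5, lowest without HTF/MultiBlast replicate 2 or 3, and 2 without HTF/MultiBlast replicate 1, any ISM1/ISM2 array or control replicate 1 or 2. Against the control it was 3 to 6, lowest without ISM1/ISM2 replicate 1 or 2 or control replicate 1 or 2. Of the 9 ribosomal protein genes that passed any of the 10 comparisons, 6 passed in comparisons with ISM1/ISM2 and in no other (66.7%), as did 77.9% of the 2798 tested genes that passed any comparison.

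Markers of embryo lineages differed between ISM1/ISM2 and oviduct, in part as they did between other groups and oviduct. Of 7 trophectoderm markers, all 7 had lower means in ISM1/ISM2 than in oviduct and 3 passed (Elf5, Eomes and Gata3), with Elf5 at a mean of 7.15 against 10.90. The summed linear signal of the 7 was 35284 to 44284 on the ISM1/ISM2 arrays and 46687 to 50277 on the oviduct arrays. Of the 4 epiblast markers 3 had lower means in ISM1/ISM2. Klf4 passed (8.12 against 9.29), while Sox2 (5.64 against 6.59) and Pou5f1 (8.07 against 8.09) did not. Nanog was higher and passed. The sums of the 4, 4568 to 4975 against 2845 to 3347, rest mostly on Nanog, the brightest (12.04 against 10.98). Of 6 primitive endoderm markers 5 were tested, without Gata4. Gata6 was higher and Pdgfra, Sox7 and Sox17 lower, with sums of 13190 to 14622 against 11694 to 14691. These sums rest mostly on Dab2, the brightest (13.17 against 12.93), which did not pass, and say little of the 3 lower genes. Nanog was also above its oviduct mean of 10.98 in HTF/MultiBlast (11.79), KSOM(aa) (11.83) and the control (11.84). Gata6 was likewise above its oviduct mean of 11.35 in those groups, at 12.15, 12.26 and 12.26, and was 11.93 in ISM1/ISM2. The trophectoderm sum was 37643 to 44858 in HTF/MultiBlast. Elf5 was at 9.95, 10.28 and 10.39 in HTF/MultiBlast, KSOM(aa) and the control. The part of these markers in the ribosomal protein results was not tested.

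In HTF/MultiBlast 3 ribosomal protein genes were lower than in oviduct and 0 were higher, while 12 of the 61 (19.7%) had an unadjusted p under 0.05, against 22.7% of all tested genes. Rps12 encodes a small-subunit protein that in Drosophila takes part in cell competition. It read 12.07, 12.10 and 12.18 in HTF/MultiBlast and 12.68, 12.76 and 12.66 in oviduct, without overlap, and was 1.5-fold lower (log2 difference -0.59, SE 0.15, adjusted p = 0.0388). Rps13, also of the small subunit, read 9.50, 9.47 and 9.75 against 10.39, 10.09 and 10.19 and was 1.57-fold lower (-0.65, SE 0.18, adjusted p = 0.0498). Rpl14 of the large subunit read 6.80, 7.03 and 6.48 against 7.75, 7.32 and 7.86 and was 1.83-fold lower (-0.87, SE 0.22, adjusted p = 0.0379). For each of the 3 genes all oviduct arrays were above all HTF/MultiBlast arrays. The 3 genes are 4.92% of the 61, where 6.18% of all tested genes passed and 2.68% were lower. The calls stand close to the threshold: leaving out 1 array ended all 3 for HTF/MultiBlast replicates 1 and 3, ISM1/ISM2 replicates 1 and 2, oviduct replicates 1 and 3 and each control array, and left 1 of 3 for HTF/MultiBlast replicate 2 and oviduct replicate 2.

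Compared with oviduct, the other groups showed the same 3 genes as follows. In KSOM(aa), Rps12 was 12.04 and 12.21, Rps13 9.69 and 9.39 and Rpl14 7.36 and 6.66. In the micromanipulation control, Rps12 was 12.12, 12.27 and 12.31, Rps13 9.79, 10.06 and 10.04 and Rpl14 7.02, 7.15 and 7.18. In ISM1/ISM2, Rps12 was 12.43, 12.29 and 12.50, Rps13 9.96, 10.07 and 10.34 and Rpl14 6.96, 6.94 and 7.19. For Rps12 the oviduct arrays were the highest 3 of the 14. These comparisons share the oviduct arrays.

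In KSOM(aa) and in the micromanipulation control, 0 ribosomal protein genes passed against oviduct (limma, adjusted p), where 0.254% and 0.427% of all tested genes did. At an unadjusted p under 0.05 there were 6 in each (9.84%), against 12.5% of all tested genes in KSOM(aa) and 17.03% in the control. The smallest p in KSOM(aa) belonged to Rps13 (log2 difference -0.68, SE 0.20, adjusted p = 0.19), Rps12 (-0.57, 0.19) and Rps15a (1.45, 0.32). In the control they belonged to Rpl22 (-0.77, 0.0969), Rps12 (-0.46, 0.162) and Rps15a (1.50, 0.172). Rps15a varied between the oviduct arrays, at 6.42, 7.07 and 4.46, against 7.98, 7.64 and 6.83 in the control and 7.47 and 7.39 in KSOM(aa). The value of 4.46, on oviduct replicate 3, is background and enters both Rps15a differences. Without KSOM(aa) replicate 1, a comparison in which the lone remaining array is taken to vary like the other groups, 1 gene passed.

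Among the remaining 3 comparisons of cultured or manipulated embryos, 0 ribosomal protein genes passed in each. Between HTF/MultiBlast and KSOM(aa) 0.265% of all genes passed, and the smallest p among ribosomal protein genes belonged to Rpl30 (log2 difference -0.51, adjusted p = 0.541), Rps27l (0.44, 0.615) and Rpl39 (1.17, 0.622). Between the micromanipulation control and HTF/MultiBlast 2.33% of all genes passed, and the smallest p belonged to Rps6 (0.65, 0.319), whose protein is phosphorylated downstream of mTOR, Rps13 (0.39, 0.354) and Rpl7l1 (-0.51, 0.355). Between the control and KSOM(aa) 0% of all genes passed, and the smallest p belonged to Rps13 (0.42), Rpl39 (1.16) and Rpl36al (-0.49), each with adjusted p = 0.992. At an unadjusted p under 0.05 these 3 comparisons gave 0, 3 and 0 ribosomal protein genes, against 9.25%, 13.8% and 4.91% of all tested genes. Without KSOM(aa) replicate 1, both comparisons with KSOM(aa) gave 1 call.

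**Figure D3:**
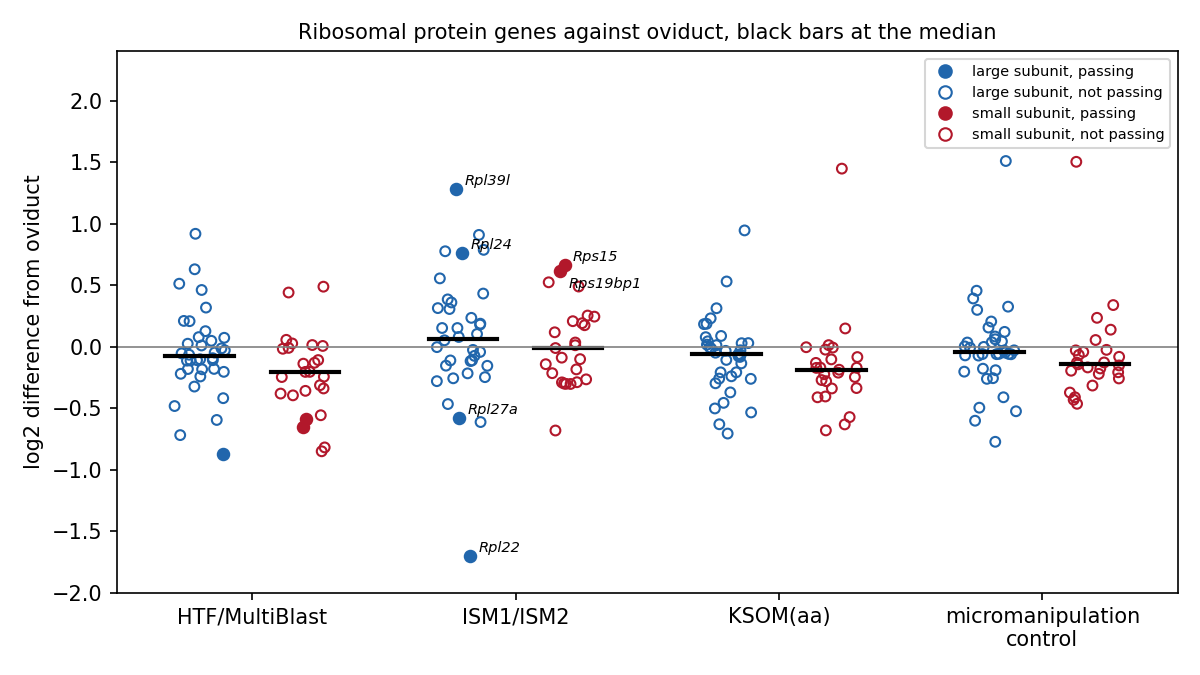
Log2 difference from oviduct of each of the 61 ribosomal protein genes in 4 comparisons, large subunit in blue and small subunit in red, with filled points for genes that passed and black bars at the median of each subunit. The 6 genes that passed in ISM1/ISM2 are named, and the 3 filled points in HTF/MultiBlast, all below 0, are Rpl14, Rps12 and Rps13. Points for small-subunit genes lie below 0 more often than above it in HTF/MultiBlast, KSOM(aa) and the micromanipulation control.

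Averaged over each group, the array medians of both subunits lay between 11.95 and 12.33. The median of the 36 large-subunit genes on an array, averaged over a group, was 12.00 ± 0.01 (SD, n = 3) in oviduct, 12.20 ± 0.13 (n = 3) in ISM1/ISM2, 11.97 ± 0.22 (n = 3) in HTF/MultiBlast, 11.95 ± 0.20 (n = 2) in KSOM(aa) and 12.01 ± 0.04 (n = 3) in the micromanipulation control. For the 25 small-subunit genes it was 12.33 ± 0.09 in ISM1/ISM2, 12.33 ± 0.14 in oviduct, 12.00 ± 0.12 in HTF/MultiBlast, 11.97 ± 0.10 in KSOM(aa) and 12.12 ± 0.06 in the control. The small-subunit medians of the oviduct and ISM1/ISM2 arrays were above those of all HTF/MultiBlast and KSOM(aa) arrays, and the large-subunit medians overlapped between most groups.

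**Figure D4:**
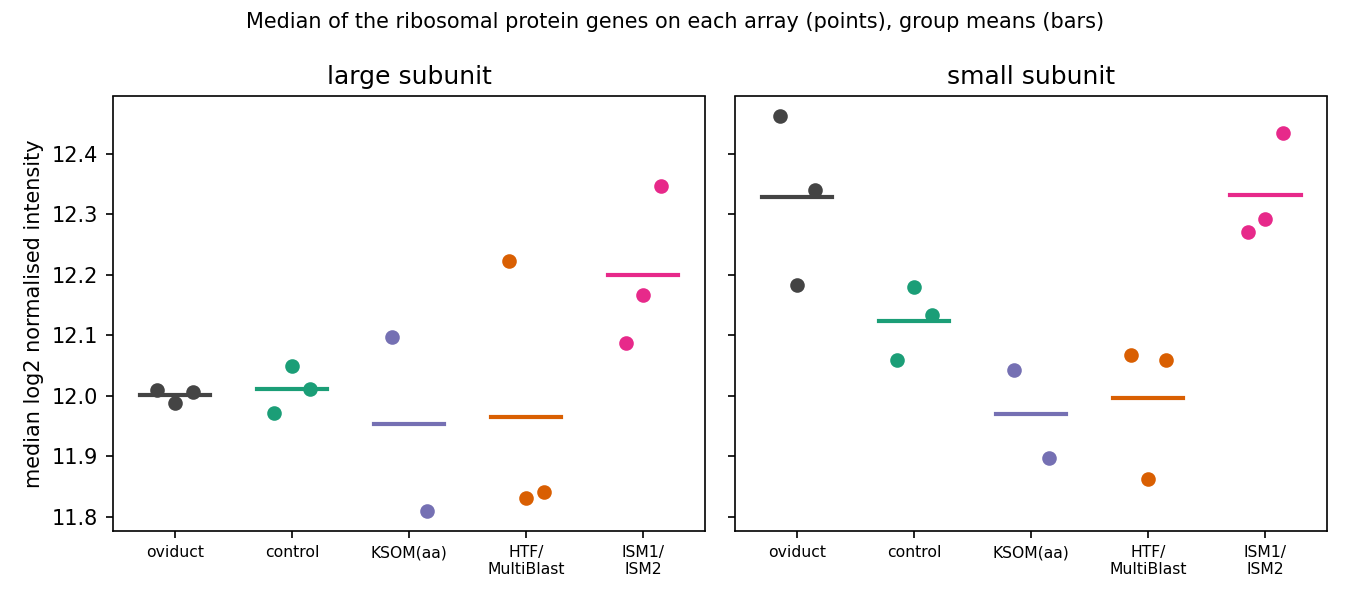
Median log2 normalised intensity of the large-subunit genes (left) and small-subunit genes (right) on each array (points), with group means (bars). The axis spans less than 1 log2 unit, and the group means of the small subunit range from 11.97 in KSOM(aa) to 12.33 in ISM1/ISM2.

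Gene by gene, the median difference from oviduct was -0.11 in HTF/MultiBlast, -0.11 in KSOM(aa) and -0.06 in the micromanipulation control, beside 0.03, 0.01 and 0.03 for all tested genes. In HTF/MultiBlast 42 of the 61 differences were negative, in KSOM(aa) 45 and in the control 42. Over all 8669 tested genes 4091, 4178 and 4085 were negative. Among the small-subunit genes the medians were -0.21, -0.19 and -0.14, with 19, 22 and 20 of 25 negative. Among the large-subunit genes they were -0.08, -0.06 and -0.04, with 23, 23 and 22 of 36 negative. These shifts depend on how the arrays are put on 1 scale. Each array was also scaled to its 75th percentile in place of quantile normalisation. The medians over the 61 genes were then -0.15 in HTF/MultiBlast, 0.01 in KSOM(aa), 0.03 in the control and 0.24 in ISM1/ISM2. Those over all tested genes were 0.04, 0.07, 0.06 and 0.08. The sign thus turned in KSOM(aa) and the control, where the 61 genes still lay below the median of all tested genes. Of the 61 genes, the highest group mean fell to ISM1/ISM2 in 25 (41%) and to oviduct in 24 (39.3%), against 2 in HTF/MultiBlast, 4 in the control and 6 in KSOM(aa). Over all tested genes it fell to ISM1/ISM2 in 29.5%, to oviduct in 23.4%, to HTF/MultiBlast in 14.6%, to the control in 17.4% and to KSOM(aa) in 15.1%. The lowest fell to HTF/MultiBlast in 21 (34.4%), to KSOM(aa) in 19 (31.1%), to ISM1/ISM2 in 8, to oviduct in 7 and to the control in 6. Over all tested genes it fell to HTF/MultiBlast in 13.2%, to KSOM(aa) in 15.3%, to ISM1/ISM2 in 29.98%, to oviduct in 27.7% and to the control in 13.9%.

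The other paralog pairs did not pass in any comparison. Rps27, a small-subunit protein with a zinc finger, ranged from 9.12 to 11.15 over the 14 arrays, and its paralog Rps27l, which p53 is known to induce, from 13.13 to 14.14. Rps27l was at 14.08, 14.13 and 13.92 in ISM1/ISM2 and at 13.32, 13.61 and 13.63 in oviduct, with no overlap of the arrays (log2 difference 0.52, SE 0.21, adjusted p = 0.084). Rpl36a ranged from 12.90 to 13.44 and Rpl36al from 10.22 to 11.36, of which the oviduct arrays alone took 11.36, 10.75 and 10.22. Rpl7l1, a factor related to Rpl7, lay between 9.45 and 10.62, and the retrogene Rps23rg1 between 4.88 and 7.06. Retrocopies of ribosomal protein genes are many in the mouse genome, and a probe may also read transcripts of near-identical copies, so the value of any single gene here is uncertain in that respect.

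Some genes were read differently by their different probes. Of the 12 genes with several tested probes, 9 moved the same way on all of them between ISM1/ISM2 and oviduct, and 8 between HTF/MultiBlast and oviduct. Rps24, a small-subunit protein mutated in Diamond-Blackfan anaemia in humans, did not: its brighter probe differed by -0.14 between ISM1/ISM2 and oviduct (adjusted p = 0.563 with every probe tested on its own), and its dimmer probe by 1.11 (adjusted p = 0.0231). The dimmer probe read 11.08, 11.01 and 10.94 in ISM1/ISM2 and 10.47, 10.30 and 8.93 in oviduct. Rpl27a was lower on both of its probes, by 0.58 on the brighter and 0.83 on the dimmer in absolute log2 units (adjusted p = 0.0491 and 0.045).

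Rpl38, singled out after its values were seen, had probes that lay far apart. Rpl38 is known for its mouse mutant Tail-short and for its role in translating Hox messages. Its brighter probe, at a mean of 13.97, read 14.07, 14.14 and 14.04 in ISM1/ISM2 and 14.02, 13.91 and 13.78 in oviduct. Its dimmer probe, at a mean of 7.53, read 9.30, 8.68 and 8.97 in ISM1/ISM2, 7.13, 6.58 and 6.54 in oviduct, 7.28 and 6.50 in KSOM(aa), 7.54, 7.58 and 7.52 in HTF/MultiBlast and 7.10, 7.41 and 7.25 in the control. On that probe every ISM1/ISM2 array was above the other 11. The difference from oviduct was 2.23 on the dimmer probe (adjusted p = 3.47e-05 with every probe tested on its own) and 0.18 on the brighter (0.472). Rpl21 and Rpl29 likewise passed on their dimmer probe only. The dimmer Rpl21 probe was detected on 0 of the 3 ISM1/ISM2 arrays. It read at least 1.4-fold higher in HTF/MultiBlast than in ISM1/ISM2 (adjusted p = 0.0158), where the brighter differed by 1.38 log2 units (0.0616), and at least 1.52-fold higher in KSOM(aa) (0.0114), where ISM1/ISM2 minus KSOM(aa) was -0.70 on the brighter (0.367). The dimmer Rpl29 probe was 0.79 higher in ISM1/ISM2 than in oviduct (log2 difference, adjusted p = 0.0268), with 2 of the 3 oviduct arrays detecting it, where the brighter was 0.31 higher (0.298).

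A list of mitochondrial ribosomal protein genes gave calls in 1 direction in ISM1/ISM2. The mitochondrial ribosome makes the few proteins encoded in mitochondrial DNA, and its own proteins come from nuclear genes named Mrpl and Mrps. Of 71 such genes tested, 24 were higher in ISM1/ISM2 than in oviduct (33.8%, where 14.3% of all tested genes were) and 0 were lower, with a median difference of 0.39 beside 0.02 for all tested genes. The higher genes included Mrpl34 (mean 8.96 against 7.67, log2 difference 1.29, SE 0.25, adjusted p = 0.00214), Mrpl42 (1.10, adjusted p = 0.00112) and Mrpl22 (1.10, 0.00243). Differences were positive in 60 of the 71, and in 4493 of all 8669 tested genes. Against KSOM(aa) 13 were higher in ISM1/ISM2 (18.3%, where 6.29% of all tested genes were) and 0 lower. Compared with ISM1/ISM2, 16 were lower in the micromanipulation control (22.5%, where 9.08% of all were) and 3 in HTF/MultiBlast (4.23%, where 3.77% were), and 0 were higher in either. Against oviduct 0 of the 71 passed in HTF/MultiBlast, KSOM(aa) or the control, where 6.18%, 0.254% and 0.427% of all tested genes did. At an unadjusted p under 0.05 there were 7, 4 and 3 of the 71, where 22.7%, 12.5% and 17.03% of all tested genes were. With only the ISM1/ISM2 and oviduct arrays in the fit 13 were higher, and with oviduct replicate 2 as the only oviduct array, a choice made after seeing the data, 12. With 1 array left out at a time the count was 16 to 26, lowest without ISM1/ISM2 replicate 1 or 2.

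**Figure D5:**
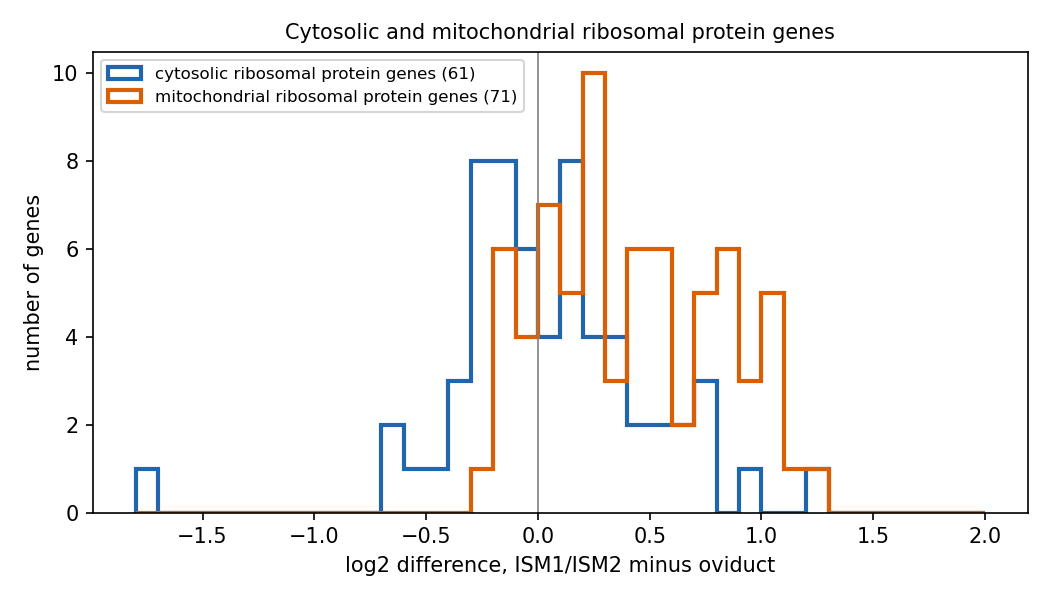
Number of genes by log2 difference, ISM1/ISM2 minus oviduct, in steps of 0.1, for 61 cytosolic (blue) and 71 mitochondrial (orange) ribosomal protein genes. The cytosolic genes centre on 0.01 and the mitochondrial genes on 0.39, and the single cytosolic gene at the far left is Rpl22.

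Of 12 genes of the elongation list, 3 were lower in ISM1/ISM2 than in oviduct (25%, where 11.5% of all tested genes were lower and 25.8% passed in either direction) and 0 higher. They were Eef1a1, which brings aminoacyl-tRNA to the ribosome (log2 difference -0.68, adjusted p = 0.0102), the kinase Eef2k that inhibits elongation (-1.25, 0.00709) and Tpt1 (-0.97, 0.00659). Tpt1 was also the 1 gene of that list lower in HTF/MultiBlast (-1.10, 0.0128), where 2.68% of all tested genes were lower. Of 9 tested subunits of the initiation factor eIF3, 0 passed in any comparison. Of 16 other initiation factors, the cap-binding protein Eif4e was higher in ISM1/ISM2 than in oviduct (1.09, 0.0217) and its inhibitor Eif4ebp1 lower (-0.60, 0.0398), 12.5% of the list where 25.8% of all genes passed.

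Of 43 ribosome biogenesis genes, 7 were lower in ISM1/ISM2 than in oviduct (16.3%) and 2 were higher (4.65%), where 11.5% of all tested genes were lower and 14.3% higher. The lower ones included Pes1 of the PeBoW complex, which processes large-subunit RNA (log2 difference -1.44, adjusted p = 0.0071), Tsr1, which acts late in small-subunit assembly (-1.22, 0.00278), and Nop58 of the box C/D particles (-0.81, 0.0148). The higher ones were Nop10 of the box H/ACA particles (1.47, 0.0135) and Polr1d, a subunit shared by RNA polymerases I and III (0.65, 0.0272). In HTF/MultiBlast 2 were lower than in oviduct (4.65%, where 2.68% of all were), Tsr1 (-1.13, 0.0163) and Imp3 (-0.65, 0.0427), and 0 were higher. In KSOM(aa) and the micromanipulation control 0 of these genes passed against oviduct. The median difference from oviduct lay between -0.26 and -0.22 in all 4 comparisons, beside 0.01 to 0.03 for all tested genes.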

How the data were processed

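Illumina single-colour bead arrays held biotin-labelled RNA of 14 samples, made from 150 ng of total RNA by 12 h of transcription in vitro, per the labels. The deposited intensity values are per probe and not normalised, with BeadStudio 3.2 named in the submitters' processing notes. The deposited detection p-values rate each probe against the array's negative controls. The authors' log2 values (median 2.89 on each array, lumi and RMA named in the processing notes, with the offset and order of steps not given in the sources used here) served only as an alternative. No slide or scan date was used.

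Here intensities were background-corrected and quantile-normalised by neqc in limma 3.58.1 (R 4.3.3) with an offset of 16 and negative controls inferred from the detection p-values. Of 25697 probes, 10975 had a detection p under 0.01 on at least 2 arrays. The platform annotation gives 1 symbol to 23978 probes and none to 1719. A symbol was read by its brightest tested probe, which gave 8669 units, 8025 of them with a symbol. A limma model over the 5 groups (9 residual and 4.32 prior degrees of freedom) gave the F test and 10 two-sided comparisons, adjusted by Benjamini and Hochberg over all units, threshold 0.05. The procedure was also run on simulated data with noise drawn independently for each gene and array. Those data held no deviations shared within an array, so the run does not bear on calls near the threshold. The number of arrays limits the precision.

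The ribosomal protein genes and the other lists were chosen with earlier results of these data known. Named genes are those passing the F test or a comparison, the 3 smallest p where none passes, the 3 brightest and 3 dimmest of each subunit, Rplp0, Rplp1, Rplp2, Rpsa, paralogs, and genes whose probes disagree in sign where 1 passes. Alternatives covered background correction, scaling, the authors' values, probe filters, the use of probes, the arrays in the fit, array weights, a replicate block and leaving out each array. Promoters come from RefSeq (GRCm38.p6).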

Additional observations from a re-analysis of the deposited data

How the results depend on the processing

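The calls of single genes kept their direction under all alternatives tried, and those of Rpl22 and Rpl39l between ISM1/ISM2 and oviduct passed under all 25. Over the 23 calls, 427 values under an alternative still passed and 141 did not. Counts of calls moved as follows. Against oviduct, HTF/MultiBlast gave 5 genes in place of 3 with no background correction and 0 with scaling to the 75th percentile, with the replicate block, with only the 2 groups in the fit, and with oviduct replicate 2 as the only oviduct array, a choice made after seeing the data. ISM1/ISM2 gave 10 in place of 6 with scaling to the 75th percentile, with every probe as its own unit and with array weights, and 3 with only the 2 groups. KSOM(aa) and the control each gave 1 in place of 0 with no background correction, and the control 3 with array weights. The F test gave 3 in place of 6 with the replicate block. HTF/MultiBlast against ISM1/ISM2 gave 2 in place of 4 with 75th percentile scaling and with the authors' log2 values, and 10 with array weights. ISM1/ISM2 against KSOM(aa) gave 3 in place of 5 with probes detected on all 14 arrays and 1 with array weights or only the 2 groups. The control against ISM1/ISM2 gave 3 in place of 5 with probes detected on all arrays and 8 with array weights, and against HTF/MultiBlast 1 in place of 0 with array weights and with only the 2 groups. The count of mitochondrial ribosomal protein genes, 24, fell to 13 with only the 2 groups and to 12 with oviduct replicate 2 alone. The median difference of the 61 genes moved from 0.01 to 0.24 in ISM1/ISM2 and from -0.11 to 0.0104 in KSOM(aa) with 75th percentile scaling. With that scaling the medians over all tested genes were 0.08 and 0.07. The cause of these moves was not tested.

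With 1 array left out at a time, the counts ranged from 2 to 9 for the F test, 0 to 3, 2 to 10, 0 to 1 and 0 to 0 for HTF/MultiBlast, ISM1/ISM2, KSOM(aa) and the control against oviduct, 1 to 5 for HTF/MultiBlast against ISM1/ISM2, 2 to 9 for ISM1/ISM2 against KSOM(aa), 0 to 1 for HTF/MultiBlast against KSOM(aa), and 0 to 0, 3 to 6 and 0 to 1 for the control against HTF/MultiBlast, ISM1/ISM2 and KSOM(aa). The mitochondrial count ranged from 16 to 26. The median differences from oviduct ranged from -0.16 to -0.06 in HTF/MultiBlast, -0.08 to 0.03 in ISM1/ISM2, -0.24 to -0.0123 in KSOM(aa) and -0.13 to -0.01 in the control. Leaving out a KSOM(aa) array leaves 1, which is then assumed to vary like the other groups.

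Whether the replicate numbers pair the arrays was not settled. Of 26 same-numbered pairs from different groups, 8 had deviations correlated above 0.1 (range -0.36 to 0.43). Pairs with different numbers were not compared, and the control's numbers conflict between titles and descriptions. Dim genes (Rpl24, Rps19bp1, Rps23, Rpl6) are limited by signal over background.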
